A study of Mus musculus with 48 samples.

Results

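4-Deoxypyridoxine (DOP), an antagonist of vitamin B6, was compared with nicotinamide and nortriptyline by RNA-Seq in STHdhQ111 cells. The members were chosen by their labels: the 3 samples with DOP at 4 mM, and the 3 samples with nicotinamide at 0.5 nM and 3 with nortriptyline at 1 nM that were collected in the same slots, pooled as 6. Together they are 9 of the 48 samples of the series. A slot is a combination of collection day and collection time, and each of the 3 compounds has a sample from day 1 at time 3, from day 2 at time 1 and from day 3 at time 2. The vehicle samples of the same cells, Q111SST replicates 1 to 3, come from other slots and are shown for reference, with no test.

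The study sequenced poly(A) RNA from a cultured mouse line that its labels call striatal progenitor cells. STHdhQ111 cells carry an expanded polyglutamine stretch in huntingtin, the change that causes Huntington's disease, and die faster than wild-type cells when serum is withdrawn. All 9 compared samples and the 3 vehicle samples were STHdhQ111 cells kept for 24 hours in serum-free medium, with the compound or the vehicle. The series has 16 conditions of 3 samples, 14 of them with a compound. The comparison asks what the millimolar vitamin antagonist does to transcripts beside a pair of compounds from the same slots at nanomolar dose.

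The cells are a conditionally immortalized line, so no result here stands for several lines or animals. The labels number the replicates and give their collection day and time, without saying whether the cultures were independent. The p-values therefore measure only the spread between replicates of a condition. That spread was estimated over all 48 samples of the series, not from the 9 compared samples alone. The deposited values are normalized abundances on a log2 scale. Read counts were not analysed here, which leaves sequencing depth and counting error unknown. Among the 9 samples, pairwise correlations across genes lay between 0.9973 and 0.9993. Mitochondrially encoded transcripts made up 3.8%, 4.49% and 4.17% of the summed linear values in DOP replicates 1 to 3, 3.52%, 3.27% and 3.67% with nicotinamide, and 3.7%, 3.86% and 4.16% with nortriptyline. The DOP share lay above both partners in each of the 3 slots, narrowly so on day 3, and its part in the results was not tested.

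The label of striatal progenitor cells was held against marker genes. Vim, an intermediate filament of progenitors and of mesenchymal cells, lay between 15.38 and 15.64 log2 units over the 12 samples, and Sox9, a transcription factor of neural progenitors, between 9.52 and 9.8. Nes, the neural stem cell filament, reached only 4.72 to 5.22, and Sox2 4.71 to 5.01. Of the striatal genes, Foxp1 was abundant at 9.89 to 10.23, Dlx1 lay at 5.79 to 6 and Dlx2 at 5.33 to 5.67. Genes of mature striatal neurons were near the floor of the table: Drd1, a dopamine receptor, was at -2.18 in every sample, and Gad1, which makes GABA, at -1.18 to -1.11. Collagen Col1a1 reached 14.31 to 14.84. Ptprc, a leukocyte gene on the microglia list, was abundant at 10.24 to 10.75, and Tmem119 of the same list lay at 7.43 to 7.77. The microglial genes Csf1r, at 1.88 to 2.11, Cx3cr1, at -1.81 to -1.78, Aif1, at -2.18, and P2ry12, at -2.13 to -2.12, were low. Of the neuronal genes, Map2 of the cytoskeleton was higher, at 8.11 to 8.85, with Tubb3 at 4.3 to 4.58 and the striatal peptide gene Penk at 2.43 to 2.91. The other neuronal genes in the table were near its floor, Dcx at -1.87 to -1.84, Rbfox3 at -2.13 to -2.12, Snap25 at -0.86 to -0.75 and Syt1 at -0.65 to -0.6. Pecam1, an endothelial gene, spread from 7.56 to 9.5, with means of 8.18 with DOP, 8.58 with nicotinamide and 9.23 with nortriptyline, a difference of -0.72 that was not called (adjusted p 0.147). It stood alone among endothelial genes, with Cdh5 at 0.18 to 0.28, Kdr at 2.9 to 3.05 and Tek at 2.13 to 2.34, and Cldn5 was not analysed here. The values thus hold Vim, Sox9 and Foxp1 beside abundant collagens, while most neuronal, microglial and endothelial genes were low beside the single abundant genes Map2, Ptprc, Tmem119 and Pecam1. Of the marker lists for neural progenitors (6 members tested), striatal lineage (6), neurons (2), astrocytes (3), oligodendrocytes (2), microglia (3) and endothelium (3), no member was called by limma between DOP and the pair, and at an unadjusted p under 0.05 the whole comparison held 3337 genes. The mesenchymal list had 1 called member of 7 (14.3%, near the 10.6% of all genes tested), Col3a1.

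Vitamin B6 enters metabolism as pyridoxal phosphate (PLP), the cofactor of transaminases, of amino acid decarboxylases, of enzymes that handle serine, glycine and sulfur amino acids, of the first enzyme of heme synthesis and of the first enzyme of sphingolipid synthesis. Pyridoxal kinase (Pdxk) phosphorylates the vitamers. DOP lacks a hydroxyl group of pyridoxine, is phosphorylated by the same kinase and competes with PLP. It is also widely used as an inhibitor of sphingosine-1-phosphate lyase (Sgpl1), the PLP enzyme that degrades this lipid signal. Nicotinamide is a form of vitamin B3, and nortriptyline is a tricyclic antidepressant.

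With DOP, transcripts of cholesterol synthesis fell and many transcripts of the cytosolic ribosome rose, while the genes of vitamin B6 handling themselves did not pass the test. Txnip, a redox and glucose-uptake regulator, fell furthest among the genes named by rule, by 0.82 log2 units, and the noncoding RNA 2410006H16Rik rose furthest, by 0.79. In limma with Benjamini-Hochberg adjustment over 13409 genes, 1416 genes had an adjusted p under 0.05 (10.6%), 735 of them higher with DOP (5.48%) and 681 lower (5.08%). The differences were small: the median size among called genes was 0.225 log2 units, and 27 called genes differed by more than 0.5. In 1336 of the 1416 the DOP sample lay on the called side of both partners in 3 of 3 slots, and in 1240 the 3 DOP samples did not overlap the 6 others. Both counts follow in part from the calls, which rest on the same values. For the slots, the share over all genes tested was not counted. Over all genes tested, 2397 (17.9%) had groups that did not overlap. Fewer cells of a kind and less RNA per cell cannot be told apart in these bulk samples. Without DOP replicate 2 the count was 523, and without DOP replicate 3 it was 920. Against nicotinamide alone it was 745 (416 higher, 329 lower), and against nortriptyline alone 809 (436 higher, 373 lower).

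The pair that made up the comparator was compared with itself. Between nicotinamide and nortriptyline limma called 0 genes (0%), and 402 of 13409 had an unadjusted p under 0.05. The count was 1 with no minimum on the mean value, and 5 when only the compared samples were fitted with the slot as a block. It was 0 in the other settings. For Txnip the pair differed little, with nicotinamide samples at 10.36 to 10.44 and nortriptyline samples at 10.36 to 10.53.

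**Figure D1:**
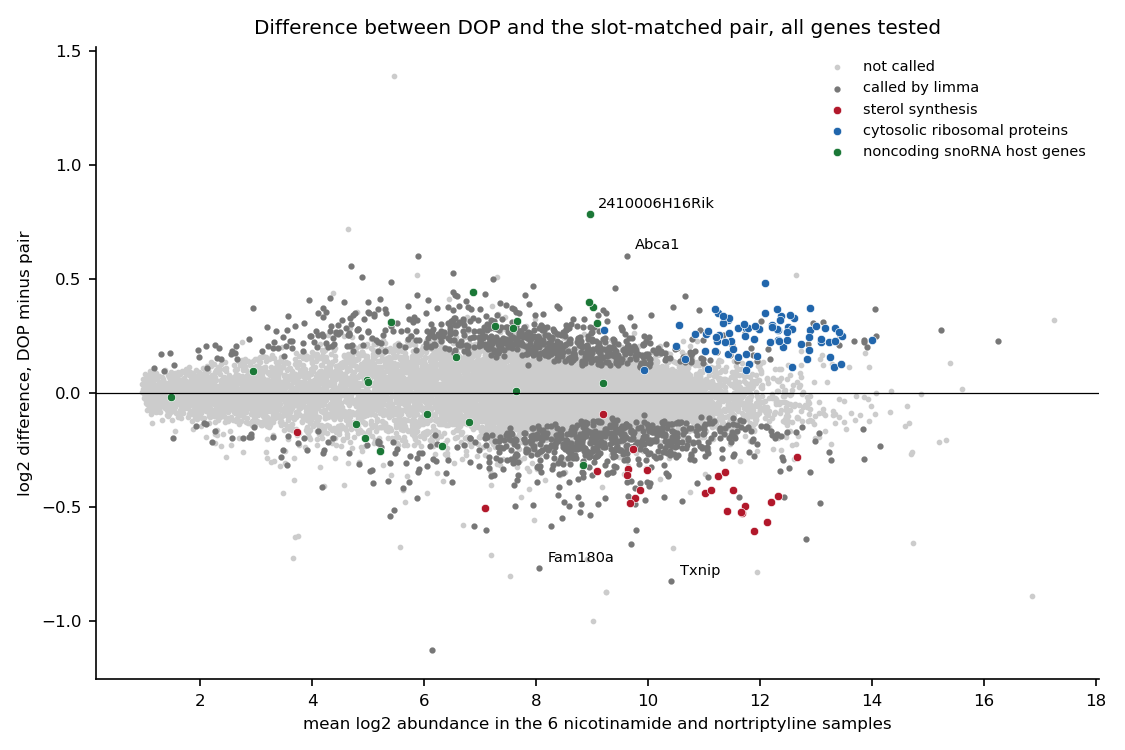
Log2 difference between DOP and the pair (vertical axis) against the mean log2 abundance in the 6 pair samples (horizontal axis), each point a gene tested by limma. Most of the 13409 genes lie close to 0, with the 5th and 95th percentiles at -0.195 and 0.2.

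Vitamin B6 handling was the first group examined. Of 6 tested genes none was called by limma, and their median difference was -0.051, beside -0.00164 over all genes tested. Pdxk was at 8.90, 8.72 and 8.85 log2 units in DOP replicates 1 to 3, at 9.01, 8.93 and 8.94 with nicotinamide and at 8.85, 9.08 and 8.90 with nortriptyline. The groups overlapped, and the difference of -0.13 had a 95% confidence interval from -0.26 to 0.00 and an adjusted p of 0.217. Prosc, a PLP-binding protein that keeps the cofactor in balance, differed by -0.08 (interval -0.17 to 0.01, adjusted p 0.232). The value for Pdxp, the PLP phosphatase, comes from an identifier shared with Sh3bp1 and differed by 0.03 (-0.06 to 0.13).

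The enzymes that use PLP were grouped by chemistry. None of 12 transaminases was called (median -0.006). Of 6 decarboxylases 1 was lower (16.7% called, median -0.031), of 10 enzymes of serine, sulfur and other amino acids 1 was higher and 1 lower (20% called, median 0.029), and of 11 enzymes of lipid, heme, sulfur cluster and glycogen metabolism 2 were higher and 1 lower (27.3% called, median 0.058). Over all genes 10.6% were called, and these shares rest on few genes. Leaving out nortriptyline replicate 1 gave 2 higher in the serine and sulfur group, and leaving out DOP replicate 2 or nicotinamide replicate 2 gave 0. In the lipid and heme group, leaving out DOP replicate 3 gave 0 higher. That group had 1 higher without DOP replicate 1 or 2, nicotinamide replicate 3 or nortriptyline replicate 1 or 3. Shmt1, the cytosolic serine hydroxymethyltransferase, which passes a carbon from serine to folate, was at 8.81, 8.73 and 8.74 with DOP, at 8.96, 9.04 and 8.98 with nicotinamide and at 9.04, 8.99 and 9.06 with nortriptyline. All 3 DOP samples lay below all 6 others, and Shmt1 fell by 0.25 (SE 0.05, adjusted p 0.00111). Its mitochondrial counterpart Shmt2 also had DOP samples at or under the lowest of the others, 10.51, 10.22 and 10.46 against 10.51 to 10.61, but the difference of -0.17 had an interval from -0.35 to 0.01 and an adjusted p of 0.219. It was 0.0382 for Shmt2 when only the compared samples were fitted with the slot as a block.

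Csad, the decarboxylase of the taurine pathway, fell by 0.21 (adjusted p 0.00893, and 0.0593 without DOP replicate 2). Srr, which makes D-serine, rose by 0.24 (adjusted p 0.024, 0.224 without DOP replicate 2 and 0.051 without nicotinamide replicate 2). Mocos, the molybdenum cofactor sulfurase, rose by 0.28 (adjusted p 0.0066, and 0.0707 without DOP replicate 3). Brain glycogen phosphorylase Pygb, in which PLP serves as a bound cofactor, differed by 0.16 at an adjusted p of 0.033, and that call ended in 7 of the 9 settings that left out 1 sample, with adjusted p up to 0.188. Csad, Srr and Pygb were not called against nortriptyline alone (0.0518, 0.109 and 0.0976), nor Pygb against nicotinamide alone (0.0828). Among PLP enzymes always shown, ornithine decarboxylase Odc1 differed by 0.13 (interval -0.01 to 0.26, adjusted p 0.224). Cth and Cbs, the enzymes of transsulfuration, differed by 0.04 (-0.24 to 0.31) and 0.02 (-0.11 to 0.15), and Psat1 of serine synthesis by -0.01 (-0.13 to 0.12). Htt, the huntingtin gene itself, differed by 0.10 (-0.04 to 0.23, adjusted p 0.391).

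Sphingolipid genes bear on the lyase that DOP inhibits. Sgpl1 mRNA was at 11.92, 11.79 and 11.94 with DOP, at 11.93, 11.85 and 11.89 with nicotinamide and at 11.95, 12 and 11.92 with nortriptyline. The samples overlapped, and the difference of -0.04 had an interval from -0.14 to 0.06 (adjusted p 0.653). Of 30 tested genes of sphingolipid metabolism and sphingosine-1-phosphate signalling, 2 were higher and 2 lower, with a median of -0.039. That is 13.3% called, near the 10.6% of all genes tested, so the members are given as single genes. Kdsr, which reduces the product of the first step of sphingolipid synthesis, was at 8.82, 8.69 and 8.65 with DOP and at 8.93 to 9.03 in the 6 others. It fell by 0.26 (SE 0.0464, adjusted p 0.000422), with no overlap. Sgpp1, a phosphatase of sphingosine-1-phosphate, was at 9.85, 9.87 and 9.85 with DOP and at 9.49 to 9.75 in the others, and rose by 0.21 (SE 0.0517, adjusted p 0.00707). The other 2 called members held less firmly. Asah2, a ceramidase, rose by 0.27 (adjusted p 0.0194, and 0.194 without DOP replicate 2, 0.0583 without DOP replicate 3 and 0.0719 without nicotinamide replicate 2). Sptlc1, a subunit of serine palmitoyltransferase, differed by -0.12 (adjusted p 0.0448), with a call that ended in 7 of 9 settings without 1 sample, at adjusted p up to 0.225, and with an adjusted p of 0.106 when only the compared samples were fitted with the slot as a block and 0.0554 with day and time slot as the block over all samples. Sptlc1 was called against neither compound alone (0.207 for nicotinamide and 0.0556 for nortriptyline), and Asah2 not against nortriptyline alone (0.129).

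Cholesterol synthesis had the largest share of called members among the lists examined. The pathway runs from acetyl-CoA through mevalonate and squalene to cholesterol, and its genes are activated together by the transcription factor SREBP2 when sterols are scarce in the endoplasmic reticulum membrane. With DOP, 23 of 25 tested genes of the list fell and 0 rose, beside 5.08% and 5.48% of all genes tested. The median difference was -0.425, all 25 differences were negative, and in 23 genes the DOP samples did not overlap the 6 others, beside 17.9% of all genes tested (2397 of 13409). The median was -0.343 in the slot of day 1, -0.515 on day 2 and -0.397 on day 3. Leaving out any 1 of the 9 samples gave 18 to 23 called members.

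The regulators of the pathway fell with its enzymes. Insig1 (chr5:28071363-28078662, + strand, GRCm38), which retains the SREBP complex in the endoplasmic reticulum when sterols are plentiful and is itself an SREBP target, was at 11.36, 11.18 and 11.30 in DOP replicates 1 to 3, at 11.78, 11.94 and 11.85 with nicotinamide and at 11.89, 11.96 and 11.92 with nortriptyline. Every DOP sample lay below every other, and the vehicle samples, at 11.99, 12.14 and 12.04, were higher still. Insig1 fell by 0.60 (1.52-fold, SE 0.0873, adjusted p 1.95e-05). Srebf2, which encodes SREBP2, fell by 0.28 (adjusted p 0.00178, and 0.0807 without DOP replicate 2). Stard4, a carrier of cholesterol between membranes, fell by 0.24 (adjusted p 0.00482, and 0.0512 against nicotinamide alone). The isomerase Ebp, a member that was not called, differed by -0.09 (adjusted p 0.4).

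Early steps were lower. Hmgcs1, the cytosolic synthase of HMG-CoA, was at 11.82, 11.92 and 11.85 with DOP, at 12.30, 12.25 and 12.32 with nicotinamide and at 12.30, 12.35 and 12.35 with nortriptyline. The DOP samples stood well below the nearest of the others, and Hmgcs1 fell by 0.45 (1.37-fold, SE 0.0678, adjusted p 3.27e-05). Idi1, the isomerase of isoprenoid units, was at 11.09, 11.18 and 11.16 with DOP, at 11.62, 11.64 and 11.77 with nicotinamide and at 11.61, 11.69 and 11.69 with nortriptyline. Neither group reached the other, and Idi1 fell by 0.53 (1.44-fold, SE 0.0699, adjusted p 7.98e-06). Mvk, mevalonate kinase, fell by 0.46, Fdps, which makes farnesyl diphosphate, by 0.48, and Fdft1, squalene synthase, by 0.44.

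The promoters of Hmgcs1 and Idi1 are shown because SREBP2 acts with the CCAAT-binding factor NF-Y at many genes of this pathway. Of the 25 members 17 had a promoter in the RefSeq table used here (GRCm38.p6, 250 bases before to 50 after the start). CCAAT, read on both strands, occurred in 16 of these 17, beside 37.4% of 32851 promoters in the table and 41.1% of the 27025 genes they belong to. Among 57 matched promoters of ribosomal protein genes the share was 33.3%. The sterol element TCACNCCAC, read on both strands, occurred in 1 of 17, that of Hmgcs1, and in 1.24% of all promoters and 1.44% of genes. A match describes letters in this window only. The sequences hold the 250 bases before the start, 5' to 3', Hmgcs1 from chr13:119690101-119690350 and Idi1 from chr13:8885356-8885605, both on the + strand, with these motifs in capitals (ATTGG is CCAAT on the other strand).
Hmgcs1: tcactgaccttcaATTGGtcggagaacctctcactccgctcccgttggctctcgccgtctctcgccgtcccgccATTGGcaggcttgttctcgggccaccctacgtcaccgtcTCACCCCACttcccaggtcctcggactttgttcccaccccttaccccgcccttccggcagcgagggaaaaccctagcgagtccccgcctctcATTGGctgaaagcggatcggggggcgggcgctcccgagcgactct
Idi1: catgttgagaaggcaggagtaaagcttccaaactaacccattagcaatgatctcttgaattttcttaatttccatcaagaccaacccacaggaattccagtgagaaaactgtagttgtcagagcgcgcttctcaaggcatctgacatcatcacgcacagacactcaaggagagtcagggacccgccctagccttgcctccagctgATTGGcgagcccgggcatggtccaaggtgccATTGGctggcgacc
In Hmgcs1 the CCAAT letters begin 237, 176 and 45 bases before the start and the sterol element 137 bases before it, and in Idi1 the CCAAT letters begin 45 and 14 bases before the start, each counted from the RefSeq start. The annotations differ here. The GENCODE M21 gene record of Idi1 begins at 8885501, which is 105 bases before the RefSeq start of 8885606 and inside the printed window, so by GENCODE these letters lie after the start. For Hmgcs1 the GENCODE record begins at 119690379, 28 bases after the RefSeq start of 119690351.

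Late steps fell as well. Cyp51, the lanosterol demethylase, was at 11.57, 11.46 and 11.63 with DOP, at 12.12, 12.01 and 12.15 with nicotinamide and at 12.13, 12.19 and 12.12 with nortriptyline, and fell by 0.56 (1.48-fold, SE 0.089, adjusted p 7.01e-05). The DOP samples of Cyp51 were all below the others. Because the sources used here do not say whether counting used strand, reads of Akap9, which overlaps Cyp51 on the other strand, cannot be told apart from its own. Lss, which closes the sterol rings, fell by 0.52, and Sqle, squalene epoxidase, by 0.42.

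Fatty acid synthesis changed in part. Of 14 tested genes 4 fell and 0 rose (28.6% called, beside 10.6% of all genes), with a median of -0.099. Elovl6, which lengthens palmitate to stearate, was at 9.52, 9.41 and 9.49 with DOP, at 10.00, 9.87 and 9.97 with nicotinamide and at 9.90, 9.96 and 9.95 with nortriptyline. The DOP samples lay apart from the rest, and Elovl6 fell by 0.47 (1.38-fold, SE 0.0639, adjusted p 1.08e-05). Acly, which makes cytosolic acetyl-CoA, fell by 0.34 (adjusted p 0.000435). Fasn, fatty acid synthase, fell by 0.33 (adjusted p 0.00284) and the desaturase Fads2 by 0.25 (adjusted p 0.0139). Leaving out DOP replicate 2, adjusted p was 0.076 for Fasn and 0.304 for Fads2, and 2 members of the list were called. Fads2 was not called against nicotinamide alone (0.0516). Srebf1, the gene of the factor that governs fatty acid synthesis, differed by 0.01 (adjusted p 0.952), and the desaturase Scd1 by -0.12 (adjusted p 0.247).

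Abca1 moved the other way. This transporter exports cholesterol from cells and is switched on by the oxysterol receptors (LXR). It was at 10.11, 10.35 and 10.20 with DOP, at 9.71, 9.48 and 9.58 with nicotinamide and at 9.64, 9.55 and 9.75 with nortriptyline. The DOP samples were all above the 6 others, while vehicle replicate 1, at 10.03, came close to them. Abca1 rose by 0.60 (1.52-fold, SE 0.155, adjusted p 0.00915, and 0.0767 without DOP replicate 2). In a list of 10 LXR targets and receptors, chosen after values were seen and so not tested, Abca1 was the 1 called member (10% called, near the 10.6% of all genes), and none was called without DOP replicate 2. The list's median was 0.044, with Abcg1 at 0.26 (adjusted p 0.149) and Mylip at 0.21 (adjusted p 0.151).

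Txnip gave the largest fall among the genes named by rule. It encodes an arrestin-like protein that binds thioredoxin and limits glucose uptake, and its transcription follows glucose through the factors MondoA and ChREBP. Txnip (chr3:96557957-96561883, + strand) was at 9.64, 9.68 and 9.46 with DOP, at 10.44, 10.36 and 10.38 with nicotinamide and at 10.53, 10.36 and 10.42 with nortriptyline. All DOP samples lay far below the others, and the vehicle samples were at 10.56, 10.55 and 10.68. It fell by 0.82 (1.77-fold, SE 0.0938, interval -1.01 to -0.63, adjusted p 1.59e-06). The gene overlaps Gm15441 on the other strand, and without strand in the counting their reads cannot be told apart.

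Arrdc4, a related arrestin-like gene governed by the same factors, was at 5.62, 5.36 and 5.25 with DOP, at 5.81, 5.94 and 5.85 with nicotinamide and at 5.86, 5.89 and 5.88 with nortriptyline, and fell by 0.46 (SE 0.08, adjusted p 0.000261). The DOP samples of Arrdc4 did not reach the others. Its mean was under the minimum of 6 for naming. Arrdc4 belongs to a list of 5 chosen after values were seen, with 2 members lower, Txnip and Arrdc4 (40% called, beside 10.6% of all genes and 5.08% lower). Because these values were known when the list was chosen, the share is a description only. The genes of the factors, Mlxipl (ChREBP), Mlxip (MondoA) and their partner Mlx, were not called (adjusted p 0.649, 0.995 and 0.986).

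The Txnip promoter is printed because Txnip fell most among the genes named by rule. The carbohydrate response element, read on both strands as a pair of CACGNG boxes with 5 bases between them, occurred in 16 of 32851 promoters (0.0487%). It begins 85 bases before the start of Txnip, which is the same base in RefSeq and GENCODE M21. The 250 bases before the start (RefSeq, GRCm38.p6, chr3:96557707-96557956, + strand) show it in capitals.
Txnip: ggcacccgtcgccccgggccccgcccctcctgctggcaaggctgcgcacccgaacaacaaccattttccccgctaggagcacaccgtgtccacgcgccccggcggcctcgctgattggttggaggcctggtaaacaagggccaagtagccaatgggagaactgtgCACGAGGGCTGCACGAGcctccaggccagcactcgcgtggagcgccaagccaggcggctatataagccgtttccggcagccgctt

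Over the 16 condition means, the genes with the highest Pearson correlation to Txnip were Slc1a2 (0.86), Mypop (0.849), Icam5 (0.834), Sdha (0.832) and Camsap3 (0.827), a description over conditions that share slots and days. Of these 5 only Slc1a2, a glutamate transporter, was called between DOP and the pair, lower by 0.33 (adjusted p 0.0175, and 0.055 without DOP replicate 2, 0.132 without DOP replicate 3, 0.0582 without nicotinamide replicate 1 and 0.127 against nicotinamide alone). The other 4 differed by -0.12 to -0.02.

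2410006H16Rik gave the largest rise among the genes named by rule. It is a spliced noncoding RNA whose introns hold 3 annotated small nucleolar RNAs (snoRNAs), Snord49a, Snord49b and Snord65, which guide chemical modification of ribosomal RNA. It lies at chr11:62602877-62604807 on the + strand. It was at 9.82, 9.83 and 9.59 in DOP replicates 1 to 3, at 8.98, 9.08 and 8.90 with nicotinamide and at 8.96, 8.92 and 8.92 with nortriptyline. The groups were well apart, and the vehicle samples, at 8.55, 8.78 and 9.03, spread more widely but stayed below DOP. It rose by 0.79 (1.73-fold, SE 0.0949, interval 0.59 to 0.98, adjusted p 2.29e-06).

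Among its closest genes over the 16 condition means were 1110038B12Rik (Pearson 0.978), Zfos1 (0.955), Snhg8 (0.92) and Snhg6 (0.915), all noncoding snoRNA hosts. Snhg6 rose by 0.44 (adjusted p 0.004), Zfos1 by 0.40 (adjusted p 0.00904), Snhg8 by 0.32 (adjusted p 0.0285) and 1110038B12Rik by 0.31 (adjusted p 0.00872). The adjusted p without DOP replicate 2 was 0.055 for Snhg6, 0.112 for Zfos1, 0.119 for Snhg8 and 0.0931 for 1110038B12Rik. The call of Snhg8 also ended without DOP replicate 1 (0.173), nicotinamide replicate 1 (0.0601) or nortriptyline replicate 3 (0.0541). With nicotinamide alone as comparator Zfos1 (0.0941), Snhg8 (0.151) and 1110038B12Rik (0.0732) were not called. Gas5, a host of many snoRNAs that is known to rise when translation or growth is arrested, rose by 0.38 (adjusted p 0.00141).

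In the whole list of noncoding genes that span an annotated snoRNA or other small RNA, chosen after values were seen, 8 of 23 tested rose and 2 fell (43.5% called, beside 10.6% of all genes), AI506816 and 2700038G22Rik, with a median of 0.06 beside -0.00164 for all genes tested. AI506816 spans a microRNA and fell by 0.32 (adjusted p 0.000605), and 2700038G22Rik lost its call in 8 of the 9 settings without 1 sample, at adjusted p up to 0.208, and against nicotinamide alone (0.259). Other hosts such as Snhg1 (0.04, adjusted p 0.816) and Snhg3 (0.01, adjusted p 0.965) were not called. Leaving out DOP replicate 2 left 2 members higher, and leaving out DOP replicate 1 or nicotinamide replicate 1 left 5. A single member was lower in 8 of these 9 settings.

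Many ribosomal protein genes rose. The cytosolic ribosome is built from about as many proteins as this list has members, and their mRNAs, like those of several translation factors and snoRNA hosts, start with a C followed by a run of pyrimidines (the 5' TOP motif), through which the kinase mTOR adjusts their translation and stability. Of 79 genes 78 were tested, 42 rose (53.8%) and 0 fell, beside 5.48% and 5.08% of all genes. This list was chosen after values were seen, so these counts are a description. All 78 differences were positive, from 0.101 (Rps28) to 0.483 (Rpl3), with a median of 0.26, and in 59 genes the groups did not overlap, beside 17.9% of all genes tested (2397 of 13409). The median was 0.327 in the slot of day 1, 0.197 on day 2 and 0.235 on day 3. The number called was 17 without DOP replicate 1 and 20 without DOP replicate 2. It was 14 against nicotinamide alone, 40 against nortriptyline alone, and 66 when only the compared samples were fitted with the slot as a block.

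Rpl3, a protein of the peptidyl transferase region of the large subunit, was at 12.56, 12.68 and 12.50 with DOP, at 12.16, 12.16 and 12.13 with nicotinamide and at 12.05, 12.08 and 11.98 with nortriptyline. DOP lay above nicotinamide and nicotinamide above nortriptyline in every slot, the last pair without a call. Rpl3 rose by 0.48 (1.4-fold, SE 0.0658, adjusted p 1.08e-05). It overlaps Syngr1 on the other strand, so their reads cannot be told apart. Rps6, the small-subunit protein phosphorylated downstream of mTOR, was at 13.33, 13.25 and 13.23 with DOP, at 12.98, 13 and 12.97 with nicotinamide and at 12.86, 12.86 and 12.70 with nortriptyline, and rose by 0.37 (adjusted p 0.00355). Its groups did not overlap either, while the vehicle samples, at 12.56, 12.79 and 12.98, covered a wide range. Rpl14 rose by 0.29 (adjusted p 0.00712, and 0.067 without DOP replicate 1) and Rpl27a by 0.35 (adjusted p 0.00765, and 0.0601 without DOP replicate 2). Rps6, Rpl14 and Rpl27a were not called against nicotinamide alone (0.0742, 0.0693 and 0.0741). Many ribosomal protein genes have near-identical pseudogenes, so the share of reads placed on each gene is uncertain. Rpl22l1, a paralog of Rpl22 outside the list, rose by 0.46 (adjusted p 0.00105).

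Start regions of these genes are shown because of the 5' TOP motif. In the 30 bases from 10 before to 20 after the annotated start, read on the gene's own strand, a C followed by pyrimidines, at least 6 bases in all, occurred in 34 of 57 matched ribosomal protein genes (59.6%), beside 24.9% of 27025 genes with a promoter in the table and 22.0% of all promoters. With at least 5 bases the shares were 66.7% and 39.6% of genes, and with at least 7 they were 49.1% and 15.6%. The run is in capitals in these RefSeq windows of GRCm38.p6, for Rps6 at chr4:86857348-86857377 (- strand), Rpl14 at chr9:120571507-120571536 (+), Rpl27a at chr7:109519185-109519214 (+) and 2410006H16Rik at chr11:62602867-62602896 (+). The GENCODE M21 gene records begin 45 bases before the RefSeq start for Rps6, 48 for Rpl27a and 73 for Rpl14, so for these 3 the printed windows lie after the GENCODE start, while for 2410006H16Rik the starts agree.
Rps6: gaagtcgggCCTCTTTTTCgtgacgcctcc
Rpl14: ggCCCTCTCTCTTCTCgctgagcgccgcca
Rpl27a: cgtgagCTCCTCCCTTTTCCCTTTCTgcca
2410006H16Rik: cgccgtCTTTCTCTgcggccatcatgggat

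Some translation factors and poly(A)-binding proteins rose. Of 19 genes in a list chosen after values were seen, 11 rose and 0 fell (57.9% called, beside 10.6% of all genes), with a median of 0.181, and 4 were called without DOP replicate 2. Pabpc4, a poly(A)-binding protein, was at 11.11, 11.05 and 11.09 with DOP, at 10.71, 10.69 and 10.68 with nicotinamide and at 10.61, 10.65 and 10.62 with nortriptyline. The 3 DOP samples were tightly grouped above the rest, and Pabpc4 rose by 0.43 (1.34-fold, SE 0.0499, adjusted p 1.59e-06). Pabpc1, the main poly(A)-binding protein, was at 14.41, 14.41 and 14.44 with DOP against 13.98 to 14.12 in the 6 others and rose by 0.37 (SE 0.0567, adjusted p 4.86e-05). The elongation factor genes Eef1b2 and Eef2 rose by 0.32 (adjusted p 0.00322, and 0.0574 without DOP replicate 2) and 0.28 (adjusted p 0.01, and 0.0949 and 0.0636 without DOP replicates 1 and 3, and 0.0532 against nicotinamide alone). Eif3l, a subunit of an initiation factor, differed by -0.01 (adjusted p 0.865).

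Mitochondrial ribosomal proteins did not share this pattern of values. Of 77 tested, 2 were higher, Mrps35 and Mrps16, and 2 lower, Mrps6 and Mrps11 (5.19% called, beside 10.6% of all genes), with a median of -0.002. Neither higher member was called without DOP replicate 1 or without DOP replicate 2, with adjusted p up to 0.118 for Mrps35 and 0.102 for Mrps16, and 1 was called without nicotinamide replicate 1. Mrps11 was called at an adjusted p of 0.0499, and the lower count was 1 without DOP replicate 2, DOP replicate 3 or any 1 of the 6 pair samples, where its adjusted p reached 0.222. Mrps16 and Mrps11 were called against neither compound alone (0.0644 and 0.0767 for nicotinamide, 0.0679 and 0.193 for nortriptyline), nor Mrps35 against nicotinamide (0.18). The difference between the lists was not tested. The 13 mitochondrially encoded mRNAs had 0 called members and a median of -0.026. Ribosomal protein genes have short annotated transcripts. By the longest transcript of each gene, their median length was 1054 bases, beside 3528 for genes with a mean of at least 6. With ribosomal proteins left out, genes were split by this length into 5 bins. The median difference was 0.005 for the shortest genes and -0.009, -0.01, -0.007 and 0.0 for longer ones. In the shortest bin 131 genes were called higher and 94 lower. The longer bins, in order, had 129 and 148, 109 and 154, 104 and 129, and 92 and 100. The part of length in the results was not tested.

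**Figure D2:**
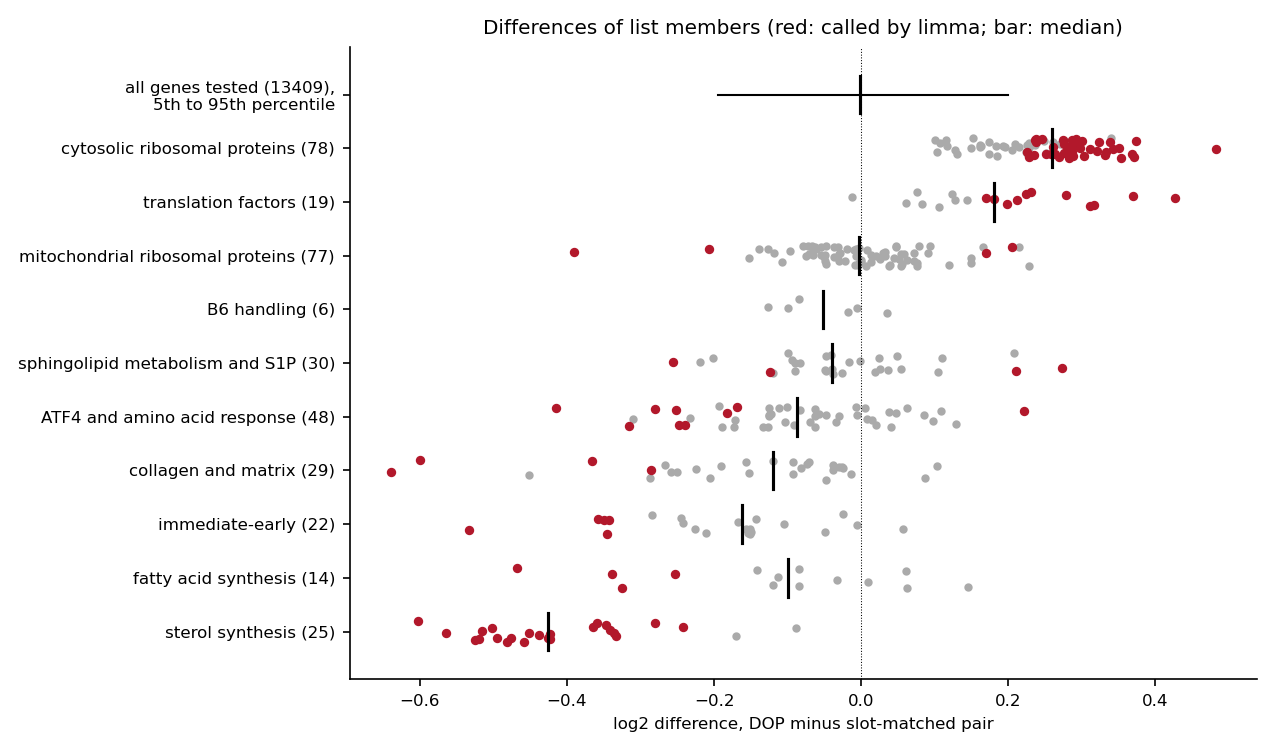
Log2 difference between DOP and the pair (horizontal axis) of every tested member of several gene lists, with limma calls in red, a bar at each median and, for all genes tested, a line from the 5th to the 95th percentile. The sterol members lie left of 0 (median -0.425) and the ribosomal protein members right of it (median 0.26).

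Both lists were followed over all 16 conditions as mean levels on the log2 scale, as a description. The mean of the sterol genes was 10.10, 9.96 and 10.08 in DOP replicates 1 to 3, 10.43, 10.44 and 10.47 with nicotinamide, 10.43, 10.50 and 10.44 with nortriptyline and 10.50, 10.54 and 10.56 with vehicle. Only diacylglycerol kinase inhibitor II had a lower condition mean, 9.95 against 10.05 for DOP, and the next above was sodium butyrate at 10.32. The DOP range, 9.96 to 10.10, overlapped that of the kinase inhibitor, 9.89 to 10.04, and not that of sodium butyrate, 10.28 to 10.38. Wild-type STHdhQ7 cells with vehicle were highest at 11.15. For the ribosomal proteins DOP ranked 15 of 16 from the lowest, with 12.37, 12.27 and 12.22, again next to diacylglycerol kinase inhibitor II at 12.31 and above sodium butyrate at 12.24, and the ranges of all 3 overlapped. Nicotinamide had 12.08, 12.12 and 12.06 and nortriptyline 12.02, 12.02 and 11.90. Vehicle samples ran from 11.68 to 12.07, a wider range than in either compound of the pair.

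**Figure D3:**
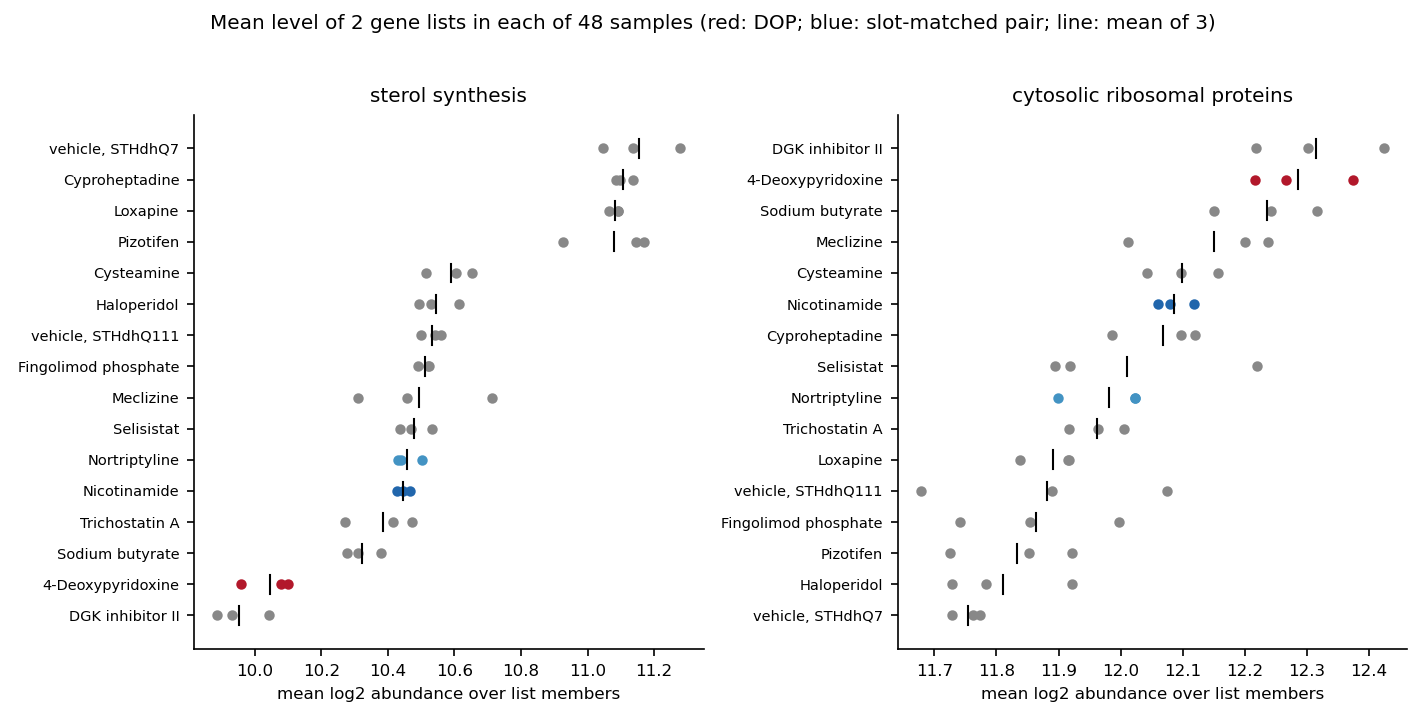
Mean log2 abundance over the members of the sterol synthesis and cytosolic ribosomal protein lists (horizontal axes) in each of 48 samples, by condition, with a line at the mean of 3. DOP (red) lies second from the lowest for sterol genes (mean 10.05) and second from the highest for ribosomal proteins (mean 12.28).

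Other genes named by rule for the largest rises have varied roles. Phyh, the peroxisomal enzyme that starts the breakdown of phytanic acid, was at 7.41, 7.65 and 7.5 with DOP and at 6.99 to 7.18 in the 6 others, and rose by 0.44 (adjusted p 5.36e-05). Zdhhc2, a palmitoyltransferase, was at 8.26, 8.22 and 8.22 with DOP against 7.73 to 7.88 and rose by 0.43 (adjusted p 7.64e-06). Mgst2, a membrane glutathione transferase, was at 8.41, 8.48 and 8.34 against 7.76 to 8.01 and rose by 0.47 (adjusted p 0.000116). In all 3 the groups did not overlap. Zc3h6, a zinc finger gene, rose by 0.50 (adjusted p 1.95e-05), and Hdac11, a histone deacetylase that also removes long fatty acyl groups, by 0.44 (adjusted p 0.00167). The identifier of Prl2c3, shared with Prl2c4, rose by 0.60 (adjusted p 0.0106, and 0.0708 without DOP replicate 3) and Prl2c2, whose groups overlapped, by 0.53 (adjusted p 0.0107, and 0.185 without DOP replicate 2 and 0.0518 without DOP replicate 3). These prolactin-like genes are near-identical copies, so how their reads were divided is uncertain. Against nicotinamide alone Prl2c3 was not called (0.117), nor Prl2c2 against nortriptyline alone (0.221).

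Other genes named by rule for the largest falls have varied roles as well. Fam180a, whose role is little known, was at 7.40, 7.23 and 7.23 with DOP, at 7.96, 8.06 and 8.08 with nicotinamide and at 8.03, 8.09 and 8.07 with nortriptyline, with vehicle in between at 7.68, 7.85 and 7.87. It fell by 0.76 (SE 0.0949, adjusted p 3.47e-06). Aqp1, a water channel, fell by 0.66 (adjusted p 0.000986). Cnnm1, of a family of magnesium transport proteins, fell by 0.60 (adjusted p 1.95e-05), Alcam, a cell adhesion molecule, by 0.58 (adjusted p 0.000458) and Angptl4, a secreted inhibitor of lipoprotein lipase, by 0.55 (adjusted p 0.000575). For Alcam the vehicle samples, at 8.05, 7.89 and 7.79, lay nearer to DOP (7.63, 7.76 and 7.69) than the pair did (8.19 to 8.35). Itgb6, an integrin subunit chosen here after its values were seen, had the largest negative difference of all called genes, -1.13 at an adjusted p of 0.0498, but its groups overlapped, its mean was under the minimum of 6 for naming, and its call ended in 6 of the 9 settings without 1 sample, at up to 0.226, and at 0.122 when only the compared samples were fitted with the slot as a block.

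Some matrix genes fell. Of 29 collagen and matrix genes 4 fell and 0 rose (13.8% called, beside 10.6% of all genes called and 5.08% lower, median -0.119), and 27 of the 29 differences were negative. Col3a1, a fibrillar collagen, was at 12.22, 12.29 and 12.05 with DOP, at 12.97, 12.74 and 12.72 with nicotinamide and at 12.90, 12.90 and 12.74 with nortriptyline. It fell by 0.64 (1.56-fold, SE 0.111, adjusted p 0.00025), without overlap, and the vehicle samples lay between at 12.51, 12.39 and 12.48. Ctgf, a matrix protein and target of the YAP pathway, fell by 0.60 (adjusted p 0.00722, and 0.0767 without DOP replicate 2). Loxl4, a collagen cross-linking enzyme, fell by 0.37 (adjusted p 0.0036, and 0.104 without DOP replicate 2), and Col5a2 by 0.29 (adjusted p 0.0208, and 0.119 without DOP replicate 2, 0.0901 without DOP replicate 3 and 0.0525 without nicotinamide replicate 1). The list had 1 lower and 1 higher member without DOP replicate 2. Ctgf was not called against nortriptyline alone (0.0539), nor Col5a2 against nicotinamide alone (0.103). Summed over the mesenchymal marker list, of which Col1a1 was the most abundant and 1 of 7 was called, the level was 15.28, 15.08 and 15.15 with DOP, 15.57, 15.41 and 15.41 with nicotinamide and 15.5, 15.54 and 15.33 with nortriptyline. Its part in the fall of these genes was not tested. Of 8 YAP targets, a list chosen after values were seen, 1 fell (12.5% called, near the 10.6% of all genes), Ctgf, and none was called without DOP replicate 2.

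Immediate-early and growth-factor response genes lay on the lower side. Of 22 tested 5 fell and 0 rose (22.7% called, beside 10.6% of all genes), 21 differences were negative and the median was -0.162. Dusp1, a phosphatase that switches off MAP kinases, was at 8.48, 8.35 and 8.46 with DOP, at 8.96, 9 and 9.01 with nicotinamide and at 8.87, 8.97 and 8.98 with nortriptyline. The DOP samples were all lower, and Dusp1 fell by 0.53 (SE 0.0894, adjusted p 0.000161). Klf4 and Myc, transcription factors of growth control, fell by 0.35 (adjusted p 0.0027) and 0.34 (adjusted p 0.0219, and 0.169 and 0.0512 for Myc without DOP replicates 2 and 3). Dusp6, which targets ERK, differed by -0.35 (adjusted p 0.0242) and Fosl1, an AP-1 subunit, by -0.36 (adjusted p 0.0407). Dusp6 lost its call without any of DOP replicates 1 to 3 (0.0616, 0.0848 and 0.0972) or nicotinamide replicate 3 (0.055), and Fosl1 in 8 of 9 such settings, at up to 0.192. Fosl1 was called against neither compound alone (0.067 for nicotinamide and 0.164 for nortriptyline), and Myc (0.125) and Dusp6 (0.243) not against nortriptyline alone. Without DOP replicate 2 the list had 2 called members, and without DOP replicate 1, DOP replicate 3 or nicotinamide replicate 3 it had 3.

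Amino acid response genes under ATF4, the factor translated when amino acids run short, were mostly not called. Of 48 tested 8 were lower and 1 higher (18.8% called, beside 10.6% of all genes, median -0.087). Slc6a9, a glycine transporter, fell by 0.41 (adjusted p 0.00782), Cars by 0.25 (adjusted p 0.00474) and Aars by 0.28 (adjusted p 0.015), the last 2 being aminoacyl-tRNA synthetases. Nupr1, a stress-induced chromatin protein, differed by -0.32 (adjusted p 0.026), and Atf4 itself by -0.25 (adjusted p 0.0344, a call that ended in 5 of the 9 settings without 1 sample, at up to 0.152). Asns, the classical target that makes asparagine, differed by 0.09 (adjusted p 0.629), Trib3 by -0.07 (adjusted p 0.86) and Ddit3 by -0.01 (adjusted p 0.979). Adjusted p without DOP replicate 2 was 0.115 for Slc6a9, 0.162 for Aars and 0.107 for Nupr1. Nupr1 also lost its call without DOP replicate 3 (0.13), nicotinamide replicate 2 (0.0539) or nortriptyline replicate 3 (0.0577). The list had 1 lower member without DOP replicate 2, 4 without DOP replicate 3 or nortriptyline replicate 3, and 5 without nicotinamide replicate 2 or nortriptyline replicate 2. The higher call, Pck2 (0.22, adjusted p 0.0407), ended without any 1 of the 9 samples, at up to 0.154. Neither nicotinamide nor nortriptyline alone gave a call for Atf4 (0.0746 and 0.114), Nupr1 (0.0619 and 0.0939) or Pck2 (0.107 and 0.1), and nortriptyline alone gave none for Aars (0.0613).

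One-carbon and folate genes had 4 lower and 0 higher of 26 (15.4% called, beside 10.6% of all genes, median -0.072), and 2 lower without DOP replicate 2 or without DOP replicate 3. Besides Shmt1 these included Mat2a, which makes S-adenosylmethionine and fell by 0.22 (adjusted p 0.0149, and 0.0603 and 0.0691 without DOP replicates 1 and 3), and Mthfd1, at -0.14 (adjusted p 0.0361), whose call ended in 4 of the 9 settings without 1 sample, at up to 0.246, and with the slot as a block (0.0638 in the fit of only the compared samples and 0.05 over all samples). Under quantile normalization Mat2a was not called. Mthfd1 was called against neither compound alone (0.164 for nicotinamide and 0.0529 for nortriptyline), and Mat2a not against nicotinamide (0.111).

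Stress and metabolic lists moved in small numbers. Of 26 NRF2 and glutathione genes 3 were higher, Gstm1 (0.38, adjusted p 0.0117), Ftl1 (0.23, adjusted p 0.0237) and Fth1 (0.23, adjusted p 0.0202), and 1 lower, Pgd, at -0.17 (adjusted p 0.0111, and 0.138 without DOP replicate 2), with a median of 0.045 and 15.4% called, beside 10.6% of all genes. None of the 3 was called without DOP replicate 1 or without DOP replicate 2, with adjusted p up to 0.0636, 0.119 and 0.151 in order, and 2 were lower without nortriptyline replicate 3. The call of Ftl1 ended in 4 of the 9 settings without 1 sample. Quantile normalization ended the calls of Ftl1 and Fth1. Gstm1 (0.0532), Ftl1 (0.151), Fth1 (0.187) and Pgd (0.0713) were not called against nicotinamide alone. Ftl1 and Fth1, the ferritin chains that store iron, were with Fbxl5 (0.23, adjusted p 0.00211), an iron sensor, the 3 higher members of 13 iron-handling genes (23.1% called, median -0.034), and 1 of them was called without DOP replicate 1 or without DOP replicate 2. The 12 heme genes had 0 calls.

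Of 26 targets of the hypoxia factor HIF, 4 fell and 1 rose (19.2% called, beside 10.6% of all genes, median -0.021). Adm, a vasodilator peptide, fell by 0.39 (SE 0.0664, adjusted p 0.000219), P4ha2, which hydroxylates collagen prolines, by 0.39 (SE 0.065, adjusted p 0.000161) and Bhlhe40, a repressor that also tunes the circadian clock, by 0.35 (SE 0.062, adjusted p 0.000342). Mxi1, an antagonist of Myc, rose by 0.30 (SE 0.0632, adjusted p 0.00197). Vegfa, the classical target, differed by 0.00 (adjusted p 0.983). In the glycolysis list 3 of 19 identifiers were lower and 0 higher (15.8% called, median -0.072), among them Pkm, pyruvate kinase, at -0.23 (adjusted p 0.0227) and Pgam1 at -0.18 (adjusted p 0.0274). The 3 include an identifier shared by Eno1 and its near-identical copy Eno1b, which is uncertain and is labelled Eno1 here. Its annotated position is chr18:48045335-48048412 (+ strand), and which gene its reads came from was not tested. Its adjusted p of 0.0397 was 0.0544 in the fit of only the compared samples. That call ended in 6 of the 9 settings without 1 sample, at up to 0.418. None of the 3 was called without DOP replicate 2 (0.213 for Pkm and 0.229 for Pgam1), and 1 was called without DOP replicate 3 or without nortriptyline replicate 1. Pkm had an adjusted p of 0.0511 without nortriptyline replicate 2. Pgam1 and Eno1 were not called under quantile normalization. With a single compound as comparator none of the 3 was called, Pkm at 0.0654 (nicotinamide) and 0.074 (nortriptyline), Pgam1 at 0.0632 and 0.0992 and Eno1 at 0.095 and 0.109.

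Protein-folding genes split. Of 20 genes of the endoplasmic reticulum response 3 fell and 0 rose (15% called, beside 10.6% of all genes, median -0.09). Calr, a calcium-binding chaperone, was at 12.52, 12.54 and 12.55 with DOP against 12.85 to 12.92 in the 6 others and fell by 0.35 (SE 0.0681, adjusted p 0.001). Dnajb11, a cochaperone, fell by 0.21 (adjusted p 0.00312), and Syvn1, a ubiquitin ligase of protein degradation, by 0.21 (adjusted p 0.00785, 0.149 without DOP replicate 2 and 0.0521 against nicotinamide alone). A member of the list was higher without DOP replicate 1, nicotinamide replicate 1 or nortriptyline replicate 2. Of 15 heat shock genes 2 rose and 4 fell (40% called, median -0.004). Hspa8, the constitutive chaperone, rose by 0.25 (SE 0.0458, adjusted p 0.000417) and Hsp90ab1 by 0.20 (adjusted p 0.00928, and 0.106 without DOP replicate 2). The Hsp90ab1 call also ended under quantile normalization. Hsph1 fell by 0.21 (SE 0.0418, adjusted p 0.00105), and Hspa1b, near-identical to Hspa1a and so uncertain, by 0.32 (adjusted p 0.00575, and 0.106 without DOP replicate 2). The lower members numbered 2 without DOP replicate 1, DOP replicate 3, nicotinamide replicate 3 or nortriptyline replicate 3, and 1 was higher without DOP replicate 2.

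Of the cell cycle genes, those of DNA replication had 6 lower and 0 higher of 24 (25.0% called, beside 5.08% of all genes lower; median -0.059), with Mcm7 of the replicative helicase at -0.19 (adjusted p 0.00566, and 0.0869 without DOP replicate 2). Mcm10, a replication initiation factor, and Mcm3 of the helicase, both at -0.18 (adjusted p 0.0345 and 0.024), and the clamp gene Pcna, at -0.16 (adjusted p 0.0481), lost their calls in 5, 4 and 6 of the 9 settings without 1 sample, at adjusted p up to 0.204, 0.121 and 0.222. The list had 0 calls by limma without DOP replicate 2, and 2 without DOP replicate 1 or nortriptyline replicate 2. Against a single compound none of these 3 was called, Mcm10 at 0.104 (nicotinamide) and 0.0804 (nortriptyline), Mcm3 at 0.0544 and 0.094 and Pcna at 0.0689 and 0.204. Mcm3 and Pcna also lost their calls under quantile normalization. None of 23 mitosis genes was called (median 0.028). Of 21 p53 targets 2 were lower (9.52% called, near the 10.6% of all genes, median -0.087), the nuclease Aen at -0.25 (adjusted p 0.0146) and the kinase Plk2 at -0.22 (adjusted p 0.0174). Without DOP replicate 2 neither was called (0.122 and 0.134), and without DOP replicate 3 Aen was not (0.0502). Plk2 was called against neither compound alone (0.0664 for nicotinamide and 0.0502 for nortriptyline), and Aen not against nortriptyline (0.101).

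Of 30 lysosome genes 4 were lower and 1 higher (16.7% called, beside 10.6% of all genes, median -0.067), led by Flcn, a regulator of mTOR at the lysosome, which fell by 0.32 (SE 0.0569, adjusted p 0.000365). Gpnmb, a membrane glycoprotein, fell by 0.27 (adjusted p 0.0223, and 0.243 and 0.0565 without DOP replicates 2 and 3), and Cd63, a tetraspanin, by 0.21 (adjusted p 0.0316), a call that ended in 4 of the 9 settings, at up to 0.132. The lower count was 1 without DOP replicate 2 or DOP replicate 3 and 2 without nortriptyline replicate 2, and the higher count was 0 without DOP replicate 1 or 2. Gpnmb and Cd63 were called against neither compound alone (0.0783 and 0.0552 for nicotinamide, 0.0595 and 0.138 for nortriptyline). Of 13 genes of NAD metabolism, to which nicotinamide belongs, 2 were lower (15.4% called, median 0.015), Sirt6 at -0.23 (adjusted p 0.00941, and 0.203 without DOP replicate 2) and Sirt3 at -0.18 (adjusted p 0.0172, and 0.053 and 0.102 without DOP replicates 2 and 3). With only the compared samples fitted, adjusted p was 0.0508 for Sirt6 and 0.0907 for Sirt3. Sirt3 was not called against nicotinamide alone (0.137). Of 11 polyamine genes 1 was lower (9.09% called), Sat1 at -0.23 (adjusted p 0.0142, and 0.0574 and 0.132 without DOP replicates 1 and 3, and 0.0619 against nicotinamide alone). Of 17 clock genes 1 was lower (5.88% called), Bhlhe40. The 21 interferon-stimulated and 6 metallothionein and zinc genes had 0 limma calls, with medians of -0.026 and -0.014.

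DOP was then set beside all 5 other compounds collected in its slots: nicotinamide, nortriptyline, cysteamine at 250 uM, loxapine at 10 uM and sodium butyrate at 1 mM. The comparisons share the DOP samples, so each is given by its own values. Limma called 745 genes against nicotinamide, 809 against nortriptyline, 1184 against cysteamine, 4724 against loxapine and 3086 against sodium butyrate. A total of 151 genes (1.13%) were called in 1 direction against all 5, 78 higher and 73 lower with DOP. The count was 55 without DOP replicate 2, 86 without nicotinamide replicate 2, 99 without nicotinamide replicate 1 or 3, and 93 without nortriptyline replicate 2 or 3, and it was 317 when only the compared samples were fitted with the slot as a block.

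Genes of the sterol list made up 13 of the 73 lower ones. Idi1 differed by -0.53 against nicotinamide, -0.52 against nortriptyline, -0.66 against cysteamine, -1.15 against loxapine and -0.34 against sodium butyrate. The largest gap, to loxapine, goes with the high sterol gene level of that condition, 11.08 on average. Txnip differed by -0.80, -0.84, -0.81, -0.30 and -1.77 in the same order, called each time, while 2410006H16Rik differed by 0.76, 0.81, 0.79, 0.95 and 0.39. Among ribosomal proteins 1 gene, Rpl3, was higher against all 5, by 0.43, 0.54, 0.30, 0.69 and 0.25. Pabpc4 differed by 0.35 against cysteamine, 0.33 against loxapine and 0.43 against sodium butyrate. Col3a1 was lower against 4 of the 5 and differed by 0.07 against loxapine (adjusted p 0.732), and Abca1 differed by 0.53 against cysteamine (adjusted p 0.0558) and 0.40 against sodium butyrate (adjusted p 0.102), neither called.

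**Figure D4:**
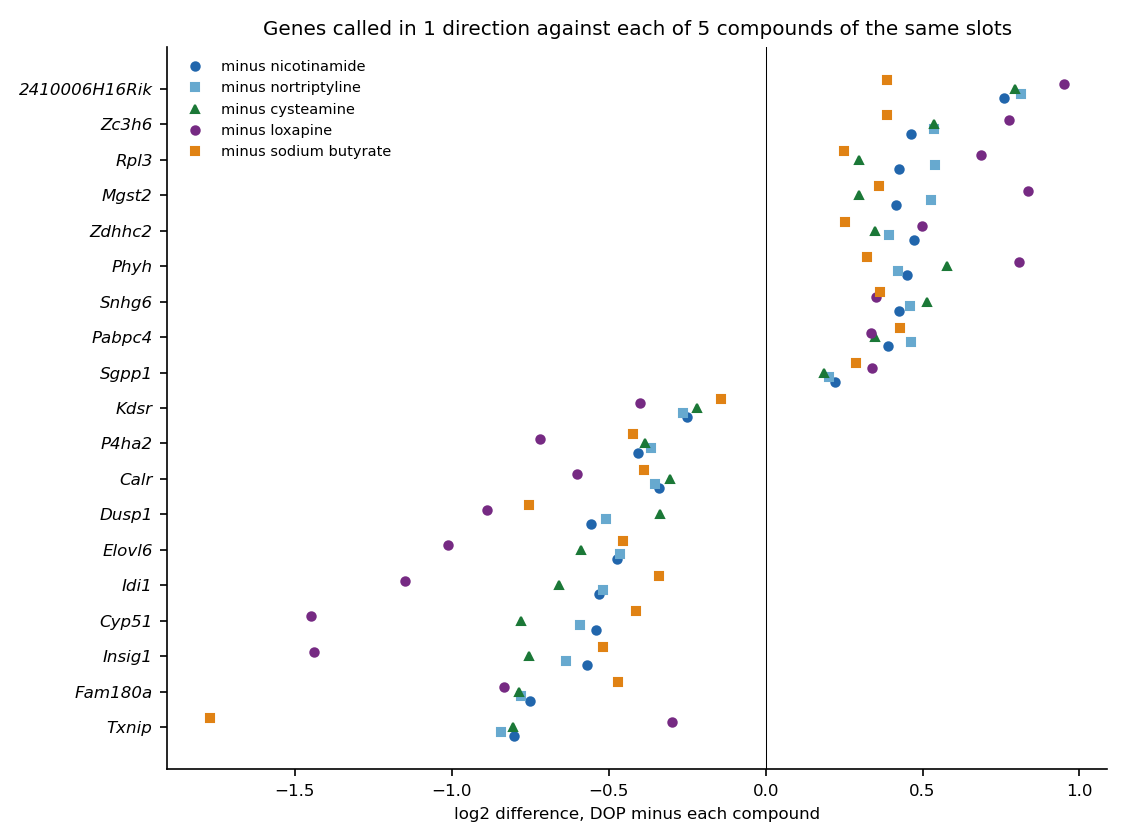
Log2 difference of DOP from each of the 5 compounds of the same slots (horizontal axis) for genes called by limma in 1 direction against all 5. Txnip runs from -1.77 (sodium butyrate) to -0.30 (loxapine) and 2410006H16Rik from 0.39 (sodium butyrate) to 0.95 (loxapine).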

How the data were processed

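RNA-Seq of 48 samples was used as deposited. The authors trimmed reads with Trimmomatic 0.36 and quantified them with RSEM on GRCm38.p5, and their processing notes name DESeq2. The deposited values are normalized abundances read as log2, since they run from -2.34 to 18.62. The transformation is not named in the sources used here. Low values hardly vary, so fold changes of low genes may be understated, which was not tested. Libraries came from a kit that marks strand, and whether counting used it is not given in the sources used here. Depth is unknown.

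Groups, doses and slots came from the labels. Of 27281 identifiers 18178 had a symbol (284 of them several), and 13409 with a symbol and a mean of at least 1 were tested. In limma 3.58.1 (R 4.3.3), 16 conditions and the collection day were fitted to all 48 samples (30 residual degrees of freedom, median residual SD 0.086, variance trend), with two-sided p-values, Benjamini-Hochberg adjustment over all genes tested and calls under 0.05. The contrast was DOP minus the mean of nicotinamide and nortriptyline. The code was tested on simulated data. Gene positions came from the GENCODE annotation and promoter sequences from RefSeq, both of GRCm38.p6. Python 3.11.15, pandas 2.3.3 and matplotlib 3.10.9 were used.

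The genes named were the 12 largest rises and 12 largest falls among called genes whose mean reached 6 and whose DOP value lay beyond both partners in 3 of 3 slots, up to 4 called members per list by size, 11 genes always shown, and for the top rise and fall the 5 genes most like them over condition means. Members and lists were chosen with earlier results of these data known. Lists of LXR, Mondo and YAP genes, translation factors, ribosomal proteins and small-RNA hosts were added after values were seen. For the compared conditions the labels give same-numbered replicates the same day and slot, which pairs them, and this does not hold for all conditions. Deviations from group means had a mean correlation of -0.0397 for same-numbered and 0.0199 for other-numbered samples. Alternatives varied the filter, the day, slot or replicate block, the scaling, the trend, the identifiers tested, the comparator and the samples left out.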

Additional observations from a re-analysis of the deposited data

Results flagged for a closer look

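Identifiers without a gene symbol, which the comparisons leave out, also held differences between DOP and the pair. Of 2205 such identifiers that reached the minimum mean, limma called 75 (3.4%) when all identifiers were tested together, 34 higher with DOP and 41 lower. Among the 13409 genes with a symbol, tested without them, 1416 (10.6%) were called. The table gives no names for them, and what they encode was not tested.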

How the results depend on the processing

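No call among 102 named genes was reversed in any setting run, and some genes without a call, such as Sgpl1, crossed 0. The DOP calls numbered 1416 as reported, 745 against nicotinamide alone, 809 against nortriptyline alone and 523 to 1236 without any 1 sample. Filters, blocks, scalings and the other settings gave 1286 to 1665. Genes called against all 5 slot-matched compounds numbered 151, 317 with only the compared samples and the slot as replicate block, and 55 to 141 without any 1 sample. Between nicotinamide and nortriptyline limma called 0 genes (402 at an unadjusted p under 0.05), 1 with no minimum mean, 5 with only the compared samples and the slot block, and 0 to 0 without any 1 sample. Sterol genes lower numbered 18 to 23 without any 1 sample. Ribosomal proteins higher numbered 42, 14 against nicotinamide alone, 66 with only the compared samples and the slot block, and 17 to 42 without any 1 sample. Quantile normalization raised the share of calls that were higher from 51.9% to 55.9%. The replicate block in place of the day gave 1442 calls for DOP, 153 against all 5 and 0 within the pair, and ended no named call. The block of day and time slot ended 2 (Sptlc1 and Mthfd1). With only the compared samples, 5 named calls ended (Sptlc1, Mthfd1, Eno1, Sirt6 and Sirt3) and 1 was gained (Shmt2). Of 87 called named genes 37 kept their call without any 1 sample; 14, 45 and 24 lost it without DOP replicates 1, 2 and 3. Nicotinamide alone ended 31 named calls (such as Prl2c3, adjusted p 0.117) and nortriptyline alone 22 (such as Prl2c2, 0.221). Quantile normalization ended 8 (Mat2a, Ftl1, Fth1, Pgam1, Eno1, Mcm3, Pcna and Hsp90ab1). Removing the minimum mean ended 2 named calls. Median of ratios scaling, a fit with no trend on the mean value and testing all identifiers ended 1 each. Counts of sterol and ribosomal genes by setting were added after the data were seen. The cause of these shifts was not tested. Unknown depth limits what can be said of low genes.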
